A study of Mus musculus with 12 samples.

Results

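The cells described here are those marked as day 0 in 4 mouse single-cell libraries, 2 from control lines and 2 from lines labelled as knockouts (KO) of Mif. A cell barcode was kept with at least 300 genes detected and at most 15% mitochondrial counts, and it was given to a hashtag when its highest hashtag had at least 20 counts and at least 3 times the second. Of the 116375 cells so assigned in the whole series, out of 176381 barcodes, 5769 were day 0 cells of these 4 lines. They came from 7 hashtags with at least 20 cells each.

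The series concerns rejection of mouse melanoma. Cells were hashed with TotalSeq-C antibodies, sorted alive with propidium iodide and sequenced with the 10x Genomics 5′ chemistry. A hashtag antibody binds the cell surface and brings a DNA barcode into the library, which lets pooled samples be told apart. The control group was made of the lines that the labels call SCC35 Mif KO control 15 and SCC35 Mif KO control 18, and the KO group of SCC35 Mif KO 19 and SCC35 Mif KO 24. What distinguishes a control from an unedited line, how Mif was edited, whether a line is 1 clone, and what a day 0 sample is are not stated in the labels. The labels' protocol speaks of dissociated tumors and names no exception for day 0. No strain, sex or age of host is stated, and no treatment is named for any of the 4 lines.

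Macrophage migration inhibitory factor, the product of Mif, is a cytokine that binds the surface receptor CD74, with CD44 and chemokine receptors as partners. Melanoma cells are among the cells known to produce it. A proliferating cell makes replication genes around the G1/S transition and mitotic genes in G2 and M, and interferon raises a large set of antiviral and antigen presentation genes.

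In each of the 4 libraries the day 0 cells carried 1 of 2 hashtags, HASH_M1 for letter A and HASH_M2 for letter B of the deposited sheet. Their barcodes are shown because the split of day 0 cells into letters A and B rests on telling them apart. Capitals mark the 11 of 15 positions at which they differ.
HASH_M1: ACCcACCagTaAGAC
HASH_M2: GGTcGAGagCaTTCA

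Control line 15 gave 719 cells for letter A and 622 for letter B, and control line 18 gave 197 cells for letter A. Letter B of line 18 had 33 hashtag counts and 0 cells and was skipped, so control line 18 rests on a single hashtag. KO line 19 gave 140 cells for A and 1175 for B, and KO line 24 gave 781 for A and 2135 for B. Summed gene counts per hashtag ran from 1710663 to 15154589 unique molecular identifiers (UMIs), and the median cell had 6058 to 19653 UMIs. Line 15 had the deepest cells and line 24 the shallowest. The median mitochondrial share was 2.16% to 2.22% in the control hashtags and 3.03% to 3.23% in the KO hashtags, without overlap. Its part in the results was not tested. Day 0 cells of different lines shared 0 to 11 cell barcodes, most between lines 19 and 24.

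Each line was sequenced in its own library, so line and library cannot be told apart, and each group holds 2 lines. Across 6725 genes, log2(CPM + 1) correlated at r = 0.99 to 0.996 between the letters of 1 line (3 pairs), at 0.970 and 0.971 between control lines 15 and 18, at 0.915 to 0.925 between KO lines 19 and 24, and at 0.847 to 0.903 between a control and a KO hashtag (CPM, a gene's count relative to the library total, on a common scale). These correlations are across genes, which are not independent replicates. A chi-square of the counts, divided by its degrees of freedom, was 1.64 to 3.32 for the same-line pairs, so none was counted as a repeat deposit of 1 library. It was 18.1 to 80.7 between the 2 KO lines, and 6.34 and 5.91 between control lines 15 and 18. This value grows with the number of counts, so pairs of unlike depth cannot be ranked by it. By r, hashtags of 1 line are close to technical repeats of that line. Nothing in the labels says whether they came from separate cultures or animals, and p-values over hashtags describe these 4 lines.

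**Figure D1:**
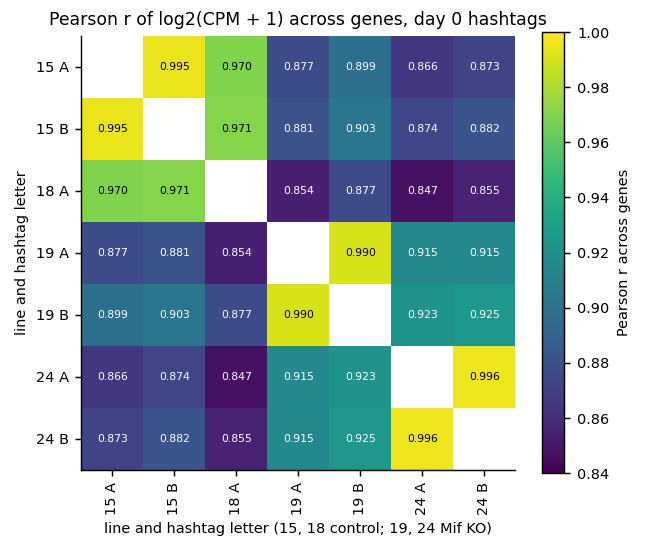
Pearson r across genes of log2(CPM + 1) for each pair of the 7 day 0 hashtags, both axes giving line and letter (15 and 18 control, 19 and 24 Mif KO). Pairs of 1 line stand at 0.99 or above, the control lines at 0.970 and 0.971 with each other, the KO lines at 0.915 to 0.925, and pairs across the groups lowest, at 0.847 to 0.903.

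Day 0 cells held few host immune cells. A UMI of Ptprc, the pan-leukocyte gene CD45, was found in 0.32% to 0.56% of cells of the control hashtags, in 0.68% and 0.71% of line 19, and in 1.28% (24 A) and 2.90% (24 B) of line 24. Macrophage and monocyte markers (10 genes) summed to 16.9 to 26.9 CPM in the control and 34.5 to 71.7 CPM in the KO hashtags. They summed to 278 to 5201 CPM at days 6 to 16 of the same libraries. Cd68 was the highest of them at day 0, at 7.70 CPM (line 15), 1.68 (18), 20.5 (19) and 17.9 (24). In lines 19 and 24 it stood at 21.8% and 13.3% of its level in later Ptprc-positive cells. The median of 16 leukocyte and macrophage markers there was 0.488% and 0.882%. Which day 0 cells held Cd68 was not tested. T cell markers (8 genes) summed to at most 0.20 CPM in the control and 4.03 CPM in the KO hashtags, and keratinocyte markers (6 genes) to at most 0.73 CPM in any. Leukocyte markers were at 344 to 365 CPM (control) and 266 to 318 CPM (KO), nearly all from Arhgdib (mean 308 CPM), which the line cells themselves held. Endothelial markers stood at 6.15 to 18.1 CPM in the control and 37.4 to 41.7 CPM in the KO hashtags. Egfl7 was the highest of them (mean 25.0 CPM). In 15 A, 273 of 719 cells had a UMI of the host-marker filter used below, and 117 had one when Egfl7 and Cdh5 were not counted. Some day 0 cells thus held 1 or both of these genes and no other marker of that filter. The type of these cells was not tested. Melanocyte markers (6 genes, 3 at 0 in every day 0 hashtag) summed to at most 1.62 CPM. The melanocytic identity that the series title names was thus not visible in those 6 markers. Of a wider list of 27 melanocyte lineage and dedifferentiation genes, 10 had enough counts to be tested. Among them, Pax3 was at 61.5 to 120 CPM and Tfap2b at 64.7 to 342 CPM across the day 0 hashtags. In the edgeR test given below these 2 were called higher in the KO lines (20%, beside 16.8% of all genes). Nes was called lower (10%, beside 19.6% of all genes), and the other 7 were not called.

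Mif itself checks the labels. It (ENSMUSG00000033307) lies on the minus strand of chromosome 10, at chr10:75859353-75860240 in GENCODE M21 (GRCm38, which is mm10). Its level was 3268 and 3217 CPM in the hashtags of control line 15 and 2784 CPM in control line 18. It was 37.6 and 45.3 CPM in KO line 19 and 208 and 214 CPM in KO line 24. All 4 KO hashtags lay far below all 3 control hashtags, and line 24 held several times the Mif of line 19. The means were 3090 CPM ± 266 (SD, n = 3) in the control and 126 CPM ± 98.0 (SD, n = 4) in the KO hashtags, which is -4.59 on the log2 scale (SE 0.64, edgeR adjusted p 0.00124). The edgeR adjusted p was 0.0444 with 1 sum per line. Permuting the group labels of the 4 line means (exact, two-sided) gave p = 0.33, and 4 lines allow no smaller value. Leaving out line 24 moved the fold change to -6.14, and leaving out line 19 moved it to -3.84.

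Single cells showed the same separation. After each cell was thinned to 1000 UMIs, 88.2%, 87.3% and 88.1% of the cells of control hashtags 15 A, 15 B and 18 A had a Mif UMI. The shares were 5.07% (exact 95% binomial interval 2.06 to 10.2) and 4.37% (3.27 to 5.71) for KO hashtags 19 A and 19 B, and 21.1% (18.3 to 24.2) and 20.3% (18.6 to 22.1) for 24 A and 24 B. Intervals cover counting error only. Thinning left out 2 to 65 shallow cells per hashtag. Without thinning the shares were 96.0% to 98.3% in the control and 32.9% to 69.4% in the KO hashtags. A cell class known to lack Mif was not at hand for a background share. At least 3 Mif UMIs, the median of the pooled control cells, were found in 44.6% to 53.8% of thinned cells of the control hashtags, in 0% of line 19 and in 0.389% and 0.531% of 24 A and 24 B. The source of the counts that remained in the KO lines was not tested.

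Among the genes of the Mif axis, 5 of 7 could be tested. Cd74, the receptor, was at 3.11, 2.33 and 7.58 CPM in the control (15 A, 15 B, 18 A) and at 17.9, 19.2, 30.9 and 54.8 CPM in the KO hashtags (19 A, 19 B, 24 A, 24 B), which is 3.21 on the log2 scale (SE 0.54, edgeR adjusted p 0.00311). It was highest in 24 B, which also had the highest share of cells with a Ptprc UMI. In the pooled day 0 cells of each line Cd74 stood at 0.0572% (line 15), 0.239% (18), 0.635% (19) and 0.702% (24) of its level in Ptprc-positive cells of days 6 to 16 of the same library, where the median of the 16 leukocyte and macrophage markers stood at 0.093%, 0.336%, 0.488% and 0.882%. With cells carrying a host-marker count left out, the fold change was 2.74 (edgeR adjusted p 0.000721). Cd44, a co-receptor, was lower in the KO hashtags, from 177 to 269 CPM in the control to 83.5 to 138 CPM (log2 fold change -0.89, SE 0.21, adjusted p 0.0139). Ackr3, a chemokine receptor for Mif, was lower (log2 fold change -1.49, adjusted p 0.0172), and so was Ddt, the homologue of Mif (-0.48, adjusted p 0.0065). The edgeR adjusted p with 1 sum per line was 0.0739 for Cd74, 0.116 for Cd44 and 0.106 for Ackr3, and Ddt was not called. Without line 15 the calls of Cd74, Cd44 and Ackr3 were lost too, with Cd74 at 2.03 (adjusted p 0.205), Cd44 at -1.25 (0.0508) and Ackr3 at -1.71 (0.0641).

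Across all genes, edgeR's quasi-likelihood test on the 7 summed hashtags called 4330 of 11874 genes at an adjusted p under 0.05 (36.5%), 2000 higher in the KO lines (16.8%) and 2330 lower (19.6%). The KO hashtags lay all above all control hashtags for 2481 genes (20.9%) and all below for 2925 (24.6%). Without line 15 the count was 1281, without its letter A 2550 and without its letter B 2766, while it was 6981 without line 19. With 1 sum per line, edgeR called 484 of 12640 genes (3.83%), 102 higher and 382 lower, all of them among the 4330. Because the test over hashtags treats letters of 1 line as independent, the calls with 1 sum per line are given beside the gene groups below.

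The 12 genes each way with the widest gap between KO and control line means are shown in the plot of leading genes. Ogn, osteoglycin, a small leucine-rich proteoglycan of the matrix, was at 26.5, 29.1 and 25.1 CPM in the control and 403, 365, 1354 and 1267 CPM in the KO hashtags (log2 fold change 4.98, SE 0.59, edgeR adjusted p 0.000627). Line 24 held the most, and every KO hashtag was above every control hashtag. Thbs1, thrombospondin 1, a secreted inhibitor of angiogenesis, was at 203, 199 and 172 CPM in the control and 1463, 1266, 1274 and 1212 CPM in the KO hashtags (log2 fold change 2.78, SE 0.11, adjusted p 3e-05). Serpinf1, pigment epithelium-derived factor, another secreted inhibitor of angiogenesis, went from 14 to 27.0 CPM to 157 to 427 CPM (log2 fold change 3.75, adjusted p 0.000666). Omd, osteomodulin, rose from at most 1.17 CPM to 23.1 to 37.6 CPM, and C1s1 and C1ra, the complement proteases of the C1 complex, from at most 1.75 and 6.70 CPM to at least 22.7 and 33.4 CPM. The others higher were S100a16, Phyhd1, Fxyd1 (a regulator of the sodium pump), Cbr2 (a carbonyl reductase), Cp (ceruloplasmin, a copper-binding ferroxidase) and Fcgrt (the neonatal Fc receptor).

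Among the 12 lower, Rgs16, a regulator of G protein signalling, was at 53.7, 91.8 and 64.1 CPM in the control and 3.92, 5.31, 1.71 and 1.93 CPM in the KO hashtags (log2 fold change -4.43, SE 0.40, edgeR adjusted p 0.000188). Nes, the intermediate filament nestin, was at 131 to 185 CPM in the control and 13.5 to 20.4 CPM in the KO hashtags (log2 fold change -3.16, SE 0.16). Fabp5, a fatty acid binding protein, went from 401 to 529 CPM to 45.4 to 88.3 CPM. Akr1c18, a hydroxysteroid dehydrogenase, was lower over hashtags (22.2 to 51.6 CPM against 0 to 5.70 CPM) but not with 1 sum per line (adjusted p 0.181). The cell cycle and DNA replication account for Tk1, Mcm5, Birc5, Ccna2, Tyms, Hist1h1b and Clspn, and the remaining gene is Ccnb1ip1. Of the 24 genes, 23 kept an adjusted p under 0.05 with 1 sum per line, the exception being Akr1c18. With line as a random block in limma-voom 23 kept it too, the exception being C1s1 (limma-voom adjusted p 0.0512). The gap that chose the genes favours both results. Tspan6, a tetraspanin found by the list rule below, had the lowest fold change of the named genes, from 26.8, 25.6 and 26.8 CPM in the control to 0, 0.32, 0.62 and 0.56 CPM in the KO hashtags (log2 fold change -5.82, SE 0.27, adjusted p 3e-05). It lies at chrX:133891068-133898429 on the minus strand.

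**Figure D2:**
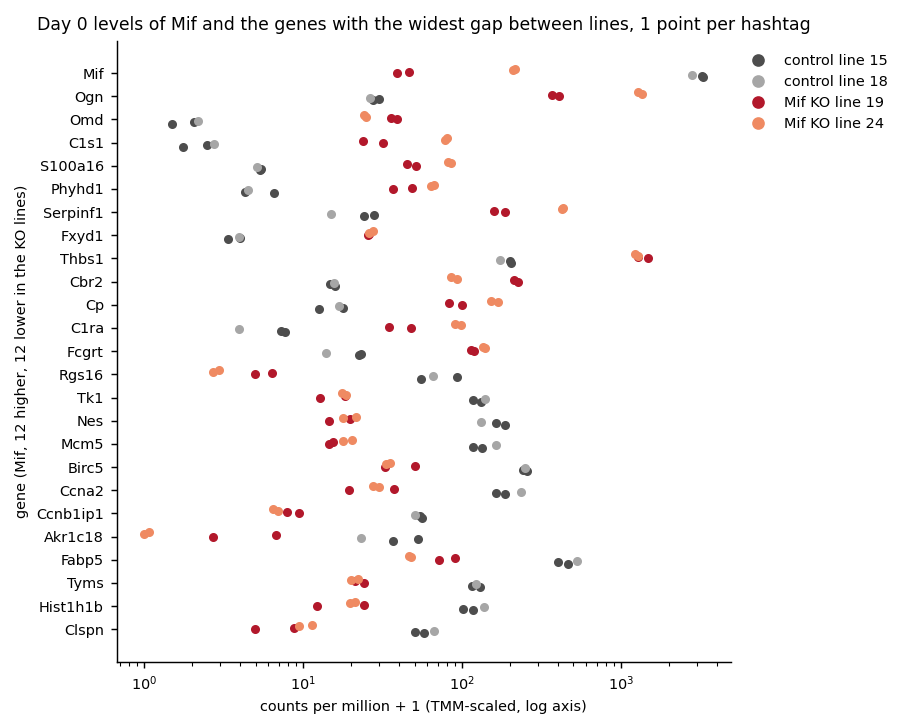
CPM plus 1 (log axis, scaled by TMM factors) of Mif and the 24 genes with the widest gap, 1 point per day 0 hashtag, in control lines 15 and 18 (greys) and Mif KO lines 19 and 24 (red, orange). Points of 1 line sit together, and the groups do not overlap for any gene shown, which the choice of genes fixes.

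Genes of the cell cycle were lower in the KO lines as a group. All 35 tested members of the G2/M list were called lower, and 33 of 34 of the G1/S and replication list, where 19.6% of all genes were called lower. The exception, Ccnd2, was at 164 to 188 CPM (control) and 164 to 263 CPM (KO). The median log2 fold change was -1.74 for the G2/M list and -1.96 for the G1/S list, beside 0.036 over all genes. Sums per line left 30 and 24 members called lower, and none higher. Lists were chosen with earlier results known.

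For G2/M, Birc5 (survivin, of the chromosomal passenger complex) was at 253, 240 and 248 CPM in the control and 31.4, 49.7, 32.0 and 34.1 CPM in the KO hashtags (log2 fold change -2.71, SE 0.17, edgeR adjusted p 7.2e-05). Ccna2, cyclin A2, was at 185, 162 and 233 CPM in the control and 18.5, 36.1, 28.9 and 26.3 CPM in the KO hashtags. Plk1, a mitotic kinase, was at 81.6 to 85.4 CPM in the control and 12.3 to 18.1 CPM in the KO hashtags, Aurkb, the kinase of the passenger complex, at 54.3 to 58.9 and 7.29 to 12.9 CPM, and Mki67, the proliferation antigen, at 154 to 192 and 19.6 to 43.1 CPM. In each, the KO hashtags lay below all control hashtags. For G1/S, Tk1 (thymidine kinase) was at 130, 116 and 137 CPM in the control and 11.8, 17.3, 17.4 and 16.4 CPM in the KO hashtags (log2 fold change -2.97, SE 0.14), Mcm5, a subunit of the replicative helicase, at 116 to 162 and 13.5 to 19.2 CPM, and Tyms, thymidylate synthase, at 114 to 129 and 19.0 to 23 CPM. Cdc6, a loader of the helicase, had the lowest fold change of the list (-3.09, SE 0.23). Summed over the list, G2/M genes made 3423 to 4146 CPM in the control and 906 to 1325 CPM in the KO hashtags.

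The share of cells with such counts differed too, although at equal depth this share falls whenever the mean falls. Thinned to 1000 UMIs, 16.1% to 25.1% of control cells and 62.2% to 65.9% of KO cells had no UMI of the G2/M list, and the 90th percentile was 8 to 9 UMIs in the control and 1 to 3 in the KO hashtags. For the G1/S list, 5.70% to 9.55% of control and 23.2% to 28.0% of KO cells had none, and the mean was 3.07 to 4.12 UMIs against 1.49 to 1.68. Fewer cycling cells and less RNA per cell cannot be told apart in sums or in these shares, and cells were not set into phases.

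**Figure D3:**
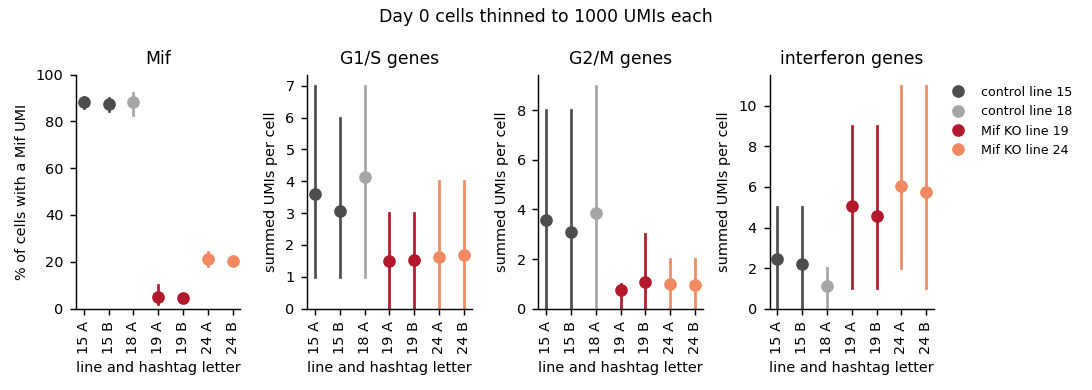
Day 0 cells thinned to 1000 UMIs, by line and hashtag letter: the percentage of cells with a Mif UMI (bars: exact 95% binomial interval) and the mean summed UMIs of 3 gene lists per cell (bars: 10th to 90th percentile of cells). KO hashtags stand below the control for Mif (4.37% to 21.1% against 87.3% to 88.2%) and for both cell cycle lists, and above for the interferon list (4.57 to 6.07 against 1.12 to 2.47).

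Promoters of these lists were searched for known elements in the 150 bases before the RefSeq start, on both strands. The CHR element (TTTGAA) and the CCAAT box (CCAAT) are known elements of G2/M promoters. In this window, TTTGAA was found in 12 of 32 windows (37.5%) of 31 G2/M genes and in 9.07% of 32851 windows of all genes, and CCAAT in 26 of 32 (81.2%) against 24.5%. For the G1/S list (34 windows of 27 genes) the shares were 8.82% and 47.1%. The search took list members whatever their day 0 call, so these shares describe the lists and not the KO lines. A match is a description of letters and not a bound site. Among the named G2/M genes the windows of Birc5, Hmgb2 and Plk1 were read, and the 2 with a match are shown, the matches in capitals, 5′ to 3′ on the gene's strand (GRCm38.p6). Hmgb2, a chromatin protein, has both elements and Plk1 a CCAAT box, while the Birc5 window holds neither.
Hmgb2, chr8:57511693-57511842, plus strand: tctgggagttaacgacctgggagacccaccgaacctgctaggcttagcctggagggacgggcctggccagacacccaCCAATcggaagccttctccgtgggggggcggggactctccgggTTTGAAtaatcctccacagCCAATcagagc
Plk1, chr7:122159285-122159434, plus strand: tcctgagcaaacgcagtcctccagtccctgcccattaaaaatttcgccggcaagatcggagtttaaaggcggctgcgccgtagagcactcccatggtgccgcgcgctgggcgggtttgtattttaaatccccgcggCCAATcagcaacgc

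Interferon genes were higher in the KO lines. Of 50 tested members of the list, 37 were called higher and 0 lower, where 16.8% of all genes were called higher, and the median log2 fold change was 1.23. With 1 sum per line 1 member was called higher by edgeR, with a median of 1.26. With line as a random block in limma-voom 18 were, with a median of 1.02. Without line 15, 18 were called higher and 0 lower by edgeR. Control line 18 was the lowest. Bst2, tetherin, which retains virions at the cell surface, was at 1089, 975 and 379 CPM in the control (15 A, 15 B, 18 A) and at 2077, 1939, 2330 and 2227 CPM in the KO hashtags (log2 fold change 1.41, SE 0.31, edgeR adjusted p 0.00957; with 1 sum per line 0.123). Ifit3, an antiviral protein, was at 39.8, 33.3 and 7.58 CPM in the control and 92.5, 66.2, 155 and 133 CPM in the KO hashtags (log2 fold change 1.96, adjusted p 0.0127, with 1 sum per line 0.145). Irgm1 and Tgtp2, GTPases of the interferon response, were at 7.58 to 17.7 and at most 1.31 CPM in the control and at 33.7 to 42.6 and 6.61 to 19.3 CPM in the KO hashtags. For each of these, the groups did not overlap.

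Summed over the list, interferon genes made 2434, 2290 and 1037 CPM in the control (15 A, 15 B, 18 A) and 5018, 4614, 5853 and 5378 CPM in the KO hashtags. Thinned cells with no UMI of the list were 18.2%, 22.1% and 36.8% of the control and 1.45% to 7.20% of the KO cells. Ptprc-positive cells were at most 2.90% of any hashtag. With cells that carried a host-marker count left out, 35 members were called higher, and 33 with a shorter list of markers. The shorter list was chosen after seeing 2 of the genes in day 0 cells that held no other listed marker. The interferon-stimulated response element (GAAANNGAAA) was found in the 150 bases before the start of 16 of 49 windows (32.7%) of 42 list genes. It was in 1.59% of all windows and in 0 of 34 and 0 of 32 windows of the cell cycle lists. These shares, too, describe the lists and not the KO lines. Promoters of the named genes are shown, matches in capitals; where 2 matches overlap, they form 1 run.
Bst2, chr8:71537473-71537622, minus strand: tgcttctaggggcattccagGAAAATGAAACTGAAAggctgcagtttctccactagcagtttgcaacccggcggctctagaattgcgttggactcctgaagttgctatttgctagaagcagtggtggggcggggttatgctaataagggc
Irgm1, chr11:48871421-48871570, minus strand: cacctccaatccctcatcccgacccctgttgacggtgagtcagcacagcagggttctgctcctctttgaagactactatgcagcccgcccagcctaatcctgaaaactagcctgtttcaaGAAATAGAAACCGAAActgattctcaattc
Ifit3, chr19:34583379-34583528, plus strand: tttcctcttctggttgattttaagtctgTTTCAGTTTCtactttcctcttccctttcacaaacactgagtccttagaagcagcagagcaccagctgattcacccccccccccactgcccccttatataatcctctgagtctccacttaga
Tgtp2, chr11:49064213-49064362, minus strand: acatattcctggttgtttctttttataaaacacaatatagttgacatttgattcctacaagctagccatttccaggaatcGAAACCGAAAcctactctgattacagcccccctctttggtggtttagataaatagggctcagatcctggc

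Antigen presentation was partly higher. In the MHC class I list, 7 of 23 were called higher (30.4%, beside 16.8% of all genes) and 0 lower (median log2 fold change 0.78), among them Tap2 and Tapbp (the peptide transporter and its partner), H2-T23 and Psmb8, an immunoproteasome subunit. H2-K1, a classical class I heavy chain, was at 697, 590 and 293 CPM in the control, 537 and 494 CPM in line 19 and 1819 and 1696 CPM in line 24. The groups overlapped and line 24 stood apart (log2 fold change 1.12, adjusted p 0.132). H2-D1 had the same order of lines. B2m, the light chain, missed the threshold (1200 to 1600 CPM against 1603 to 2692 CPM, adjusted p 0.0515). In the MHC class II list 4 of 6 were called higher, but H2-Aa reached only 18.2 CPM (in 24 B) and was at 0.203% (line 19) and 0.626% (line 24) of its level in Ptprc-positive cells, beside medians of 0.488% and 0.882% for the leukocyte and macrophage markers. H2-DMb1, also called higher, was at 14.57 to 21.69 CPM in the control. It was at 40.35 and 41.83 CPM in line 19 and at 31.25 and 30.51 CPM in line 24. The class II list was also summed with cells carrying a host-marker count left out. It made 27.66 to 28.7 CPM in the control and 51.61 to 80.25 CPM in the KO hashtags. The part of host cells in the class II levels was not tested. With 1 sum per line, 1 class I member and 0 class II members were called. Without line 15 the calls were 2 and 0, and without line 19 the class I list had 18 higher and 2 lower.

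Some abundant matrix genes were higher in the KO lines. Of 43 tested collagens and matrix proteins, 10 were called higher (23.3%, not far from the 16.8% of all genes) and 3 lower (6 higher and 0 lower with 1 sum per line). The collagen list had 6 higher and 0 lower without line 15, 17 and 6 without line 19, and 17 and 13 without line 24. Of 8 small leucine-rich proteoglycans and bone matrix genes 5 were higher (62.5%) and 0 lower (3 and 0 with 1 sum per line). Spp1, osteopontin, a secreted adhesion protein, was at 5643, 5714 and 5853 CPM in the control and 14420, 11930, 14910 and 14580 CPM in the KO hashtags (log2 fold change 1.30, SE 0.09, edgeR adjusted p 0.000103). Fn1, fibronectin, was at 438, 443 and 434 CPM in the control and 2026, 1922, 1526 and 1501 CPM in the KO hashtags (log2 fold change 2.01, SE 0.14, adjusted p 8.2e-05). Col11a1, a fibrillar collagen, was at most 1.69 CPM in the control and 11.8 to 18.1 CPM in the KO hashtags. Dmp1, a bone matrix protein, was at most 0.95 CPM in the control and 14.6 to 23 CPM in the KO hashtags. Lama4, a laminin chain, was called higher with 40.7 and 46.9 CPM in line 24 alone (0.56 and 0.52 CPM in line 19). Among metalloproteinases and their inhibitors 6 of 19 were higher (31.6%, beside 16.8% of all genes) and 1 lower (1 and 0 with 1 sum per line). Mmp2, a gelatinase, was at 42.0 to 46.4 CPM in the control and 94.3 to 119 CPM in the KO hashtags. Fibroblast and pericyte markers (7 genes, with Col3a1 the highest) summed to 27.2 to 50.8 CPM in the control, 21.6 and 41.8 CPM in line 19 and 59.2 and 124 CPM in line 24. With host-marked cells left out, the collagen list had 10 higher and 2 lower and the proteoglycan list 5 and 0.

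Of 9 tested complement genes 6 were called higher and 1 lower (2 and 1 with 1 sum per line), where 16.8% of all genes were called higher and 19.6% lower. C1ra and C1s1 are given above. Summed over the list, line 19 stood below the control hashtags (425 and 464 CPM against 520 to 547 CPM) and line 24 above them (893 and 915 CPM). C1qbp, a mitochondrial protein that binds C1q, was at 495 to 533 CPM in the control. It was lower in the KO hashtags, at 221 to 269 CPM (log2 fold change -1.03, edgeR adjusted p 0.000134). C1qbp thus made up most of the control sums, and the lower sums of line 19 rest on this gene. C1ra and C1s1 were higher in line 19 than in every control hashtag. So was Clu, at 12.18 to 13.96 CPM in the control and 89.11 and 57.18 CPM in line 19. Cd59a was at 7.58 to 11.45 CPM in the control and 27.46 and 20.01 CPM in line 19. The list was not summed without C1qbp.

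Vim, Lgals1 and 3 S100 genes, all abundant, were lower over hashtags. Vim, vimentin, the intermediate filament of mesenchymal cells, was at 11540, 12580 and 10790 CPM in the control and 5161, 5494, 3337 and 3351 CPM in the KO hashtags (log2 fold change -1.41, SE 0.20, edgeR adjusted p 0.00129). S100a4, a calcium-binding protein of motile cells, was at 3059 to 3373 CPM in the control and 1083 to 1913 CPM in the KO hashtags, S100a6 at 12310 to 14510 and 7068 to 8286 CPM, and S100a11 at 3607 to 3891 and 2053 to 2284 CPM. Among the 10 S100 genes tested, these 3 were lower (30%, beside 19.6% of all genes) and 1 (S100a16) higher. With 1 sum per line S100a16 was called and no S100 gene was lower (edgeR adjusted p 0.101 for S100a4, 0.069 for S100a6 and 0.0539 for S100a11). Lgals1, galectin 1, was at 8553 to 9229 CPM in the control and 4785 to 6119 CPM in the KO hashtags. Acta2 (smooth muscle actin) was higher, from 8.74 to 38.5 CPM in the control to 108 to 150 CPM, and the mesenchymal list split 5 higher and 5 lower of 21 (23.8% each way, near the shares of all genes; 0 either way with 1 sum per line). Vim had an edgeR adjusted p of 0.0588 and Lgals1 one of 0.0931 with 1 sum per line.

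Glycolysis and hypoxia genes were lower in part, 14 of 32 tested members lower (43.8%, beside 19.6% of all genes) and 2 higher (0 either way with 1 sum per line), with a median log2 fold change of -0.52. Without line 15, 0 were lower and 1 higher. Ldha, lactate dehydrogenase A, was at 3623, 3437 and 3131 CPM in the control and 1783, 1893, 786 and 792 CPM in the KO hashtags (log2 fold change -1.35, SE 0.33, edgeR adjusted p 0.0154). Gapdh was at 7407 to 9558 CPM in the control, 5215 and 5619 CPM in line 19 and 3378 and 3592 CPM in line 24. Pgk1 and Pgam1, enzymes of lower glycolysis, had log2 fold changes of -1.43 and -1.57. Line 24 was lowest for all 4, and their groups did not overlap. Hif1a and Vegfa were the 2 members called higher (0.90 and 0.77). Of the cholesterol and fatty acid list, 8 of 30 were lower (26.7%, not far from the 19.6% of all genes) and 2 higher (1 and 0 with 1 sum per line). Mvk and Dhcr7, of sterol synthesis, had log2 fold changes of -1.12 and -1.05, and Fasn, fatty acid synthase, 1.03.

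Stress genes were mixed. Nupr1, a stress-induced nuclear protein, was at 235, 302 and 218 CPM in the control and 1117, 912, 1505 and 1452 CPM in the KO hashtags (log2 fold change 2.32, SE 0.21, edgeR adjusted p 0.000179). Fth1, the ferritin heavy chain, was at 6930 to 9415 CPM in the control and 14620 to 15170 CPM in the KO hashtags (log2 fold change 0.93, adjusted p 0.000917). Gstm1 and Gstm2, glutathione transferases, were higher (1.5 and 2.27), while Gsr, glutathione reductase, was lower (-0.95). In that list 6 of 29 tested members were higher (20.7%) and 4 lower (13.8%), near the 16.8% and 19.6% of all genes (2 higher and 0 lower with 1 sum per line). In the unfolded protein and ATF4 list, which holds Nupr1, 9 of 27 were higher (33.3%) and 4 lower (14.8%), and 1 and 0 with 1 sum per line. Psat1 and Phgdh, of serine synthesis, were among the 4 lower (-1.39 and -1.07). Cdkn1a, the cell cycle inhibitor p21, had 191 to 322 CPM in the control and 242 to 279 CPM in the KO hashtags, with overlapping groups (log2 fold change -0.06, SE 0.17), and Trp53 was lower (-0.60, SE 0.09). In the p53 list 4 of 24 were higher and 5 lower, near the shares of all genes (0 and 1 with 1 sum per line). With 1 sum per line the edgeR adjusted p was 0.104 for Trp53 and 0.0774 for Psat1.

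**Figure D4:**
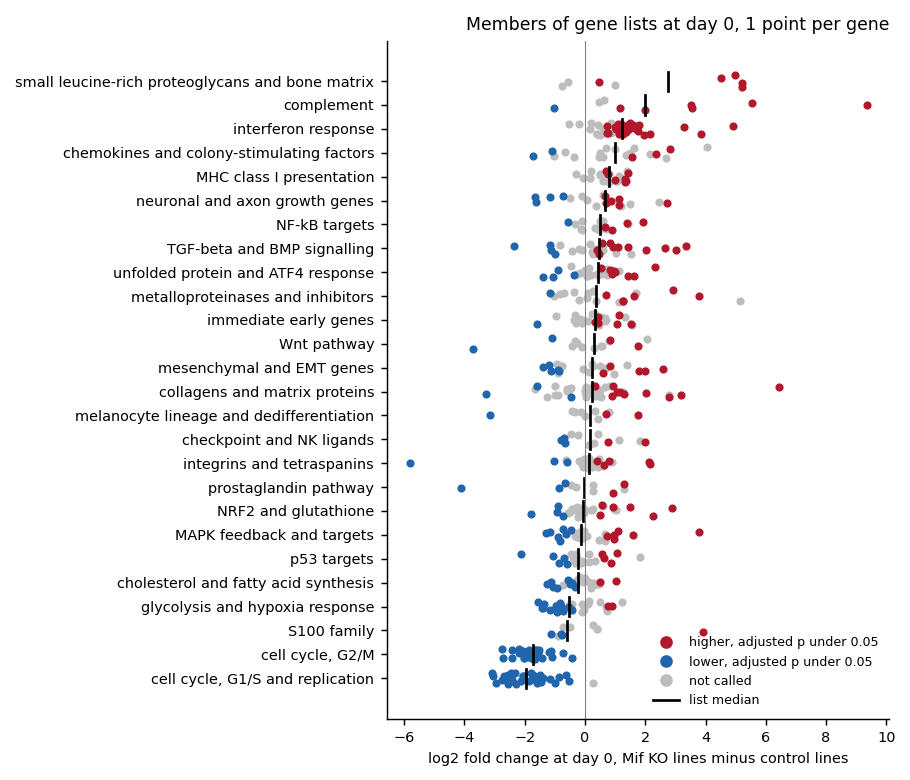
Log2 fold change at day 0 (Mif KO lines minus control lines, hashtag fit) of the tested members of each list with at least 8 tested genes, 1 point per gene, with the list median as a black bar; red and blue points passed an edgeR adjusted p of 0.05. The cell cycle lists lie left of 0 (medians -1.96 and -1.74) and the interferon and proteoglycan lists right (1.23 and 2.77).

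The same lines were also sampled at days 6, 10 and 16. A second fit asked whether the KO-control difference at day 0 differed from that at later days, with line as a term, on cells without host-marker counts of the 4 libraries (26639 later cells). That filter left out 23.4% to 38.0% of day 0 cells in the control and 41.4% to 49.3% in the KO hashtags, without overlap. Without Egfl7 and Cdh5, 2 of its genes, it would leave out 16.3% to 19.3% and 19.6% to 26.3%. Of all day 0 cells, 0.32% to 2.90% per hashtag had a Ptprc UMI. Of 12637 genes, 2180 had a more positive change in the KO lines (17.3%) and 2087 a less positive change (16.5%). This fit treats hashtags of the same line as independent, and no version with sums per line was run. The p-values and calls of this fit therefore describe these 4 lines. Leaving out line 15 gave 1893 calls in all in place of 4267, and day 6 alone gave 2721. With no cells left out there were 5406 calls, and with the shorter marker list 4694. Day 0 values in this fit come from fewer cells and differ from those above, for some genes and hashtags by a lot. Cd74 of 24 B was at 27.7 CPM here and at 54.8 CPM above, and the summed G2/M genes of 19 A at 683 CPM here and 906 CPM above.

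In the cell cycle lists, 34 of 35 G2/M and 33 of 34 G1/S genes changed more positively in the KO lines. Their median log2 change from day 0 to later was -0.54 and -0.79 in the control lines and 0.99 and 1.13 in the KO lines. Summed G1/S genes of control line 15 went from 3312 and 3638 CPM at day 0 to 2019 to 3078 CPM later, and those of KO line 19 from 1575 and 1631 CPM to 2005 to 2498 CPM. Mcm5 of line 15 went from 118 to 59.7 CPM, of line 18 from 147 to 65.1 CPM, of line 19 from 14.8 to 52.1 CPM and of line 24 from 15.0 to 43.8 CPM (interaction 2.67, SE 0.29, edgeR adjusted p 9.6e-08). Among metabolic genes, 14 of 36 glycolysis and hypoxia genes changed more positively and 3 less, and 16 of 30 cholesterol and fatty acid genes more and 0 less, where 17.3% of all genes changed more and 16.5% less positively. The counts of genes with a more positive change fell to 9 and 5 without line 15 and to 9 and 9 without line 24, and with day 6 alone the cholesterol list had 5 more and 2 less positive. H19, an imprinted non-coding RNA, changed from 1.20 to 33.9 CPM in line 19, from 4.50 to 42.6 CPM in line 24, from 13.6 to 15.1 CPM in control line 15 and from 3.05 to 10.1 CPM in control line 18 (interaction 3.51, SE 0.77).

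Cp, C1s1, Apod (a lipocalin), Igfbp4 (an IGF-binding protein), Mme (neprilysin, a cell surface peptidase) and Ccn5 changed less positively in the KO lines. Cp of the control lines went from 13.4 to 113 CPM (15) and from 14.5 to 105 CPM (18), while the KO lines stood at 86.7 and 96.9 CPM (19) and 158 and 157 CPM (24) (interaction -2.97, SE 0.62). Ccn5 at day 0 was high in line 24 alone (145 CPM, with 1.13 CPM in line 19). For interferon genes, 0 of 52 changed more and 7 less positively (16.5% of all genes changed less), with a median interaction of -0.41. With day 6 alone 6 changed more and 3 less positively (median 0.28), and without line 15, 0 and 1. The summed level of line 19 was 4318 and 5227 CPM at day 0, 5483 and 5649 CPM at day 6 and 1802 to 2124 CPM at days 10 and 16, and that of line 24 was 4578 to 7926 CPM at later days. The control hashtags stood at 2095 to 4165 CPM at day 10 and at 1792 to 2570 CPM at day 16. Cd74 in these filtered cells of line 24 went from 30.5 and 27.7 CPM at day 0 to 459 and 586 CPM at day 16. In line 19 it went from 21.8 and 16.6 CPM at day 0 to 25.8 to 123 CPM at later days. The part of host cells that passed the filter in these later levels was not tested. Mif differed by 1.33 (edgeR adjusted p 2.2e-08). Its level was higher later in both KO lines, from 46.1 and 46.5 CPM to 69.1 to 102 CPM in line 19 and from 189 and 203 CPM to 338 to 491 CPM in line 24. It was lower later in both control lines, from 3002 and 3105 CPM to 2209 to 2850 CPM in line 15 and from 2729 CPM to 1937 to 2285 CPM in line 18. Ptprc-positive cells of days 6 to 16 held 488 CPM of Mif in the library of line 19 and 750 CPM in that of line 24, and their part in this change was not tested.

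**Figure D5:**
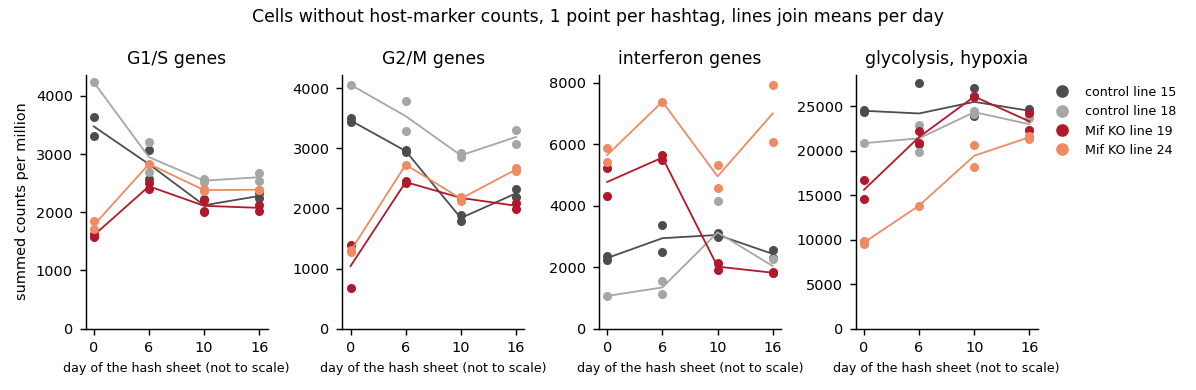
Summed CPM of 4 gene lists in cells without host-marker counts, 1 point per hashtag, by day of the hash sheet (equal spacing, not to scale) for each line; lines join the means of a day. At day 0 the KO lines are lower for the cell cycle lists (G1/S 1575 to 1849 CPM against 3312 to 4234 CPM) and closer to the control at later days. Interferon genes stand at 4578 to 7926 CPM in line 24 after day 0 and at 1802 to 2124 CPM in line 19 at days 10 and 16. The part of host cells that passed the filter in these later levels was not tested.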

How the data were processed

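Per the labels' protocols, dissociated cells were hashed and sorted alive; per the submitters' processing notes, Cell Ranger 6.0.0 and the mm10 build were used. Deposited values are the authors' unnormalized UMI counts per gene and barcode of 6 libraries (32285 gene rows and 10 hashtag rows in each); 4 were used, since the 2 mixed libraries hold no day 0 hashtag. A deposited sheet gave library, day and letter of each hashtag, and the sample titles gave the line. Counts were summed per hashtag and fitted in edgeR 4.0.16 (filterByExpr, TMM, glmQLFit, glmQLFTest, R 4.3.3) without covariates, calling genes at a Benjamini-Hochberg adjusted p under 0.05; the later-day fit had line, later and their group term. CPM are TMM-scaled unless list sums. A standard error is the fold change divided by the root of F. The fits were tested on simulated data. No doublet caller was run; barcodes with 2 comparable hashtags were left out, and doublets within a hashtag remain.

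Named genes were Mif, the 12 each way with the widest gap between line means (mean logCPM at least 4, groups apart, no predicted or clone name), up to 4 members per list plus the most abundant, and 6 each way for the later-day fit; other members were named after their values were seen. The 29 lists, and the 150-base promoter search, were chosen with earlier results of these data known. Of list members, 10 were not matched by a unique symbol. Alternatives were no count filter, RLE scaling, DESeq2 1.42.0, 1 sum per line, limma 3.58.1 voom with line as a block (correlation 0.711), the letter as a block, a stricter hashtag call and cell filter, host-marked cells or the top 10% of cells by UMIs left out, thinned sums, and each hashtag or line left out. Promoters came from RefSeq (GRCm38.p6).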

Additional observations from a re-analysis of the deposited data

Results flagged for a closer look

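Among the 4 KO hashtags, 5 of 142 genes examined had 1 hashtag far from the other 3 by Dixon's criterion at the 95% level, and chance alone marks about 1 group in 20 when the 4 values are independent, which 2 letters from each of 2 lines are not. Birc5 was highest in 19 B at 49.7 CPM, still below every control hashtag. Spp1 was lowest in 19 B at 11930 CPM, still above every control hashtag. Trp53 was highest in 24 B at 110.8 CPM and Ccn1 was highest in 19 A at 904 CPM. Il1b, a cytokine of myeloid cells, was highest in 24 B at 14.9 CPM, where the share of cells with a Ptprc UMI was also highest (2.90%); its part was not tested. The control group of 3 hashtags was too small to be examined this way.

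The KO-control difference at later days differed from that at day 0, by an interaction term in edgeR, for Mif (1.33) and for the genes named for it. H19 (3.51), Pclaf (2.76), Clspn (2.70), Mcm5 (2.67), Rrm2 (2.60) and Fabp5 (2.57) changed more positively in the KO lines. Pclaf, Clspn, Mcm5 and Rrm2 act in DNA replication. Ccn5 (-6.11), Apod (-3.41), C1s1 (-3.37), Cp (-2.97), Mme (-2.82) and Igfbp4 (-2.65) changed less positively. These are differences on the log2 scale between cells without host-marker counts, and Ccn5 was high at day 0 in line 24 alone.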

How the results depend on the processing

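The 4330 genes called at day 0 became 484 with 1 sum per line and 2472 with line as a random block in limma-voom. Leaving out 1 hashtag or 1 line gave 1281 to 6981 calls, lowest without line 15 and highest without line 19. The letter as a replicate block gave 3408 calls; no source says that equal letters share a culture or day, so the letters are not taken as pairs. Of members of the lists, 304 were called, 85 with 1 sum per line and 132 to 459 with 1 hashtag or line left out. The 4267 genes of the later-day comparison became 2721 with day 6 alone and 1893 to 3503 without 1 line. Mean shares of cells with a Mif UMI (87.9% in the control and 12.7% in the KO hashtags) were 97.3% and 51.3% without thinning, and 89.8% in the control with a stricter hashtag call. Genes that missed the threshold over all hashtags changed sign: Krt18 (-0.25 with line as a random block, and -1.89 without line 19 to 2.10 without line 15), Timp2 (-0.012 without line 18 letter A to 0.39 without line 15), Cd63 (-0.14 without line 19 to 0.35 without line 24, with -0.0061 without line 18 letter A) and Hsp90b1 (-0.24 without line 19 to 0.91 without line 24). Without line 19, Krt18 (edgeR adjusted p 0.0034) and Hsp90b1 (0.0258) passed it. The cause of these changes was not tested. Mif kept its direction and an adjusted p under 0.05 under all alternatives run. The smallest sums, 1710663 and 1787942 UMIs, limit what can be seen of genes under a few CPM in line 19 letter A and line 18.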

Other observations

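Other signalling genes also differed at day 0. Of 29 tested genes of TGF-beta and BMP signalling, 11 were called higher (37.9%) and 4 lower (13.8%) in the KO lines (1 and 0 with 1 sum per line), where 16.8% of all genes were called higher and 19.6% lower. Ltbp3, which binds latent TGF-beta, was at 11.7 to 13.1 CPM in the control and 51.6 to 108 CPM in the KO hashtags, and Tgfb3, a ligand, at no more than 3.49 and at least 15.8 CPM. Fst, follistatin, an activin antagonist, was lower, from 56.0 to 70.4 CPM to 6.84 to 18.7 CPM, and Id1, Id2 and Id3, transcriptional targets of BMP, had log2 fold changes of -1.17, -1.0 and -1.14. In the MAPK list the feedback genes Spry1 and Spry2 were higher (1.10 and 0.96) and Dusp5, Etv4 and Fosl1 lower (-1.16, -1.30 and -0.89). That list had 6 higher (24%) and 7 lower (28%) of 25 (0 and 1 with 1 sum per line). Of 19 neuronal and axon growth genes 6 were higher (31.6%) and 4 lower (21.1%), and 0 and 2 with 1 sum per line. Stmn1, a microtubule regulator, was at 146 to 164 CPM in the control and 40.9 to 53.5 CPM in the KO hashtags, and Tubb3, a neuronal tubulin, at 37.3 to 60.4 and 9.53 to 17.4 CPM.

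Of 19 tested chemokines and colony-stimulating factors, 3 were called higher (15.8%) and 2 lower (10.5%), no more than the shares of all genes (0 and 1 with 1 sum per line). Cx3cl1, fractalkine, was at 10.5 to 13.2 CPM in the control, 21.9 CPM in both hashtags of line 19 and 93.1 and 98.3 CPM in those of line 24. Il11, a cytokine of the IL-6 family, was lower in the KO hashtags (11 to 23.9 CPM against 2.24 to 5.98 CPM, edgeR adjusted p 0.00545, 0.0481 with 1 sum per line and 0.236 with line as a random block in limma-voom). Krt18, a simple-epithelium keratin, split the groups by line, at 130 to 150 CPM for line 15, 37.9 CPM for 18, 260 to 336 CPM for 19 and 30.0 to 30.8 CPM for 24, and was not called.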
